A study of Mus musculus with 9 samples.

Results

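Cyclic AMP is made from ATP by adenylyl cyclases, is broken down by phosphodiesterases, and acts mainly through protein kinase A (PKA), whose regulatory subunits hold the catalytic subunits inactive until cyclic AMP binds. A-kinase anchoring proteins (AKAPs) tie the regulatory subunits to particular places in the cell. In the testis the pathway carries the gonadotropin signals of Sertoli and Leydig cells, and in sperm it controls motility and capacitation. The genes described here are those whose symbol in the probe annotation begins with Adcy, Pde or Akap and a number, or with Prkac or Prkar. Rows of the array that carried several symbols were left out, and so were Akap3 and Akap4, the anchors of the sperm fibrous sheath. This gave 54 genes on 58 rows, out of 19935 genes with a value. They are 10 cyclases, 21 catalytic phosphodiesterases, 3 accessory subunits of the retinal phosphodiesterase, 5 PKA subunits and 13 anchors, together with Pde12 and Pde4dip, which fit by symbol alone. Pde12 encodes a nuclease of mitochondrial RNA, and Pde4dip encodes myomegalin, a centrosome and Golgi protein.

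The arrays hold total RNA of the testis from untreated Swiss albino males at 8, 16 and 24 days, ages within the first wave of spermatogenesis, with 3 biological replicates at each age. Values are log2 signals relative to the median of each array row over all 9 arrays, so that 0 is the middle array of a gene and no value is an expression level. No row was without a blank cell, and blanks were taken as 0, so that a value printed as 0.00 may be a blank. Replicates 1 and 2 carry those numbers in their titles, and replicate 3 carries none. All changes below are differences on the log2 scale, later minus earlier age, with limma's standard error for 3 arrays per age. That error rests on 1 spread per gene shared by all 9 arrays, and not on the spread of the ages compared alone. A gene is said to rise or fall where its p, adjusted by Benjamini-Hochberg over all 19935 genes, is under 0.05.

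In whole testis, more or fewer cells of a type and more or less RNA per cell cannot be told apart. Markers fixed for the cell types moved with age. All 5 meiotic markers rose at 16 versus 8 days, and their mean lay between 0.03 and 0.26 in the 16 day arrays, against -3.25 to -2.89 in the 8 day arrays. All 5 haploid markers rose at 24 versus 16 days, with means of 3.96 to 4.96 in the 24 day arrays against -0.27 to -0.01 in the 16 day arrays. At 24 versus 8 days all 5 spermatogonial markers fell (means of -0.93 to -0.80 against 0.52 to 0.60), and so did 5 of 6 Sertoli cell markers (-0.76 to -0.51 against 0.53 to 0.79), 4 of 4 Leydig cell markers (-0.98 to 0.11 against 1.16 to 1.49), 4 of 4 peritubular markers (-0.52 to -0.24 against 0.28 to 0.36), 4 of 4 endothelial markers (-0.49 to -0.28 against 0.57 to 0.79) and 2 of 4 macrophage markers (-0.24 to 0.00 against 0.08 to 0.67). All 4 Leydig cell markers had already fallen at 16 versus 8 days (means of -1.08 to -0.23 in the 16 day arrays), and 1 of 4, Cyp11a1, rose at 24 versus 16 days (1.06 ± 0.36). The part of these shifts in the results below was not tested. At 16 days replicate 2 had a lower mean of the spermatogonial markers, -0.46, than replicates 1 and 3, at 0.01 and 0.13. Its means were also the lowest of that age for Sertoli cell (-0.28), peritubular (-0.08) and endothelial (-0.12) markers. They were the highest for meiotic (0.26), haploid (-0.01) and Leydig cell (-0.23) markers, and between the others for macrophage markers (0.00). Of the 22 genes of the pathway that fell at 24 versus 8 days, replicate 2 was the lowest 16 day array in 14 and the highest in 3. Of the 12 that rose it was the highest in 6 and the lowest in 2. Of the 20 not called it was the highest in 10 and the lowest in 9. No such count was made over all genes. Replicate 1 of 8 days and replicate 2 of 16 days also had raised values of olfactory receptor genes, with a median of 0.17 over 1027 genes against -0.05 to 0.03 in the other arrays.

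Genes of the pathway moved in both directions with age, as did the array as a whole. At 24 versus 8 days, 12 of the 54 genes rose and 22 fell, a share called of 63.0% beside 54.4% of all genes. The share that rose was 22.2% beside 19.2% of all genes, and the share that fell was 40.7% beside 35.2%, so that both lay near those of all genes. At 16 versus 8 days 6 rose and 13 fell, 35.2% beside 24.7% of all genes (11.1% beside 10.4% for rises and 24.1% beside 14.3% for falls). At 24 versus 16 days 12 rose and 16 fell, 51.9% beside 33.3% of all genes (22.2% beside 13.2% for rises and 29.6% beside 20.1% for falls). The median change of the 54 genes was -0.07, -0.13 and -0.25 in the first interval, the next and the whole span, where that of all genes was -0.02, -0.16 and -0.18. The mean of the array medians moved by -0.03, -0.09 and -0.12 in those comparisons, a shift that centring each array removes. Called changes of 2-fold or more numbered 7 rises and 7 falls at 24 versus 8 days (9.72% and 7.16% of all genes), 4 and 2 at 16 versus 8 days (3.82% and 0.968%) and 5 and 0 at 24 versus 16 days (5.38% and 0.145%). No array of 1 age lay within the range of the other for 12 higher and 28 lower genes at 24 versus 8 days, where 20.5% of all genes were separate and higher, 45% separate and lower and 65.5% either. At 16 versus 8 days they were separate for 6 higher and 17 lower genes (14.7%, 21.5% and 36.2% of all genes), and at 24 versus 16 days for 13 and 24 (16.5%, 39.1% and 55.6%). The change differed between the intervals in 4 genes, Adcy10, Pde1a, Akap14 and Akap1, higher in the later interval in each, while 0 were lower. That share of 7.41% stands beside 5.38% of all genes, of which 3.06% were higher and 2.31% lower. Of the comparisons of ages, 12 of 19 calls in the first interval, 15 of 28 in the next and 31 of 34 over the whole span held when any 1 array was left out. The falls at 16 versus 8 days numbered 6 without replicate 2 of 8 days and 7 without replicate 2 of 16 days. Those at 24 versus 16 days numbered 8 without replicate 1 of 16 days, 9 without replicate 3 of 16 days, 7 without replicate 1 of 24 days and 10 without replicate 2 of 24 days. With each array centred on its median, 9 fell at 24 versus 16 days.

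**Figure D1:**
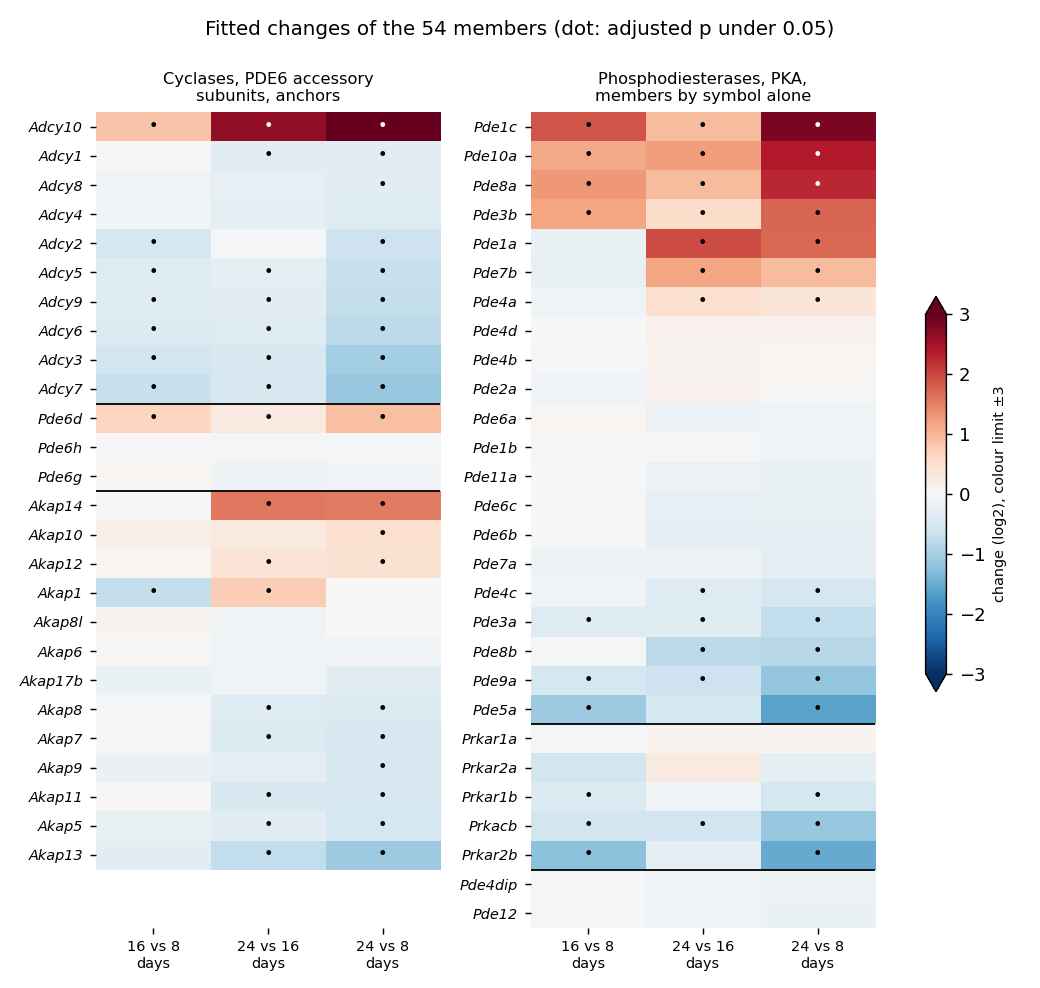
Fitted log2 change of each of the 54 genes (rows, by family and ordered by the change at 24 versus 8 days) in the 3 comparisons (columns), where red is higher and blue lower at the later age and a dot marks an adjusted p under 0.05. Adcy10 and a few phosphodiesterases are deep red, with changes of up to 3.51, while most other cyclases, PKA subunits and anchors are pale blue.

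Promoter sequences are shown for 4 genes that rose at 24 versus 8 days, from the cyclases, anchors and phosphodiesterases, as RefSeq gives them (GRCm38.p6). They were searched for motifs of CREM, MYB and RFX factors, which are known regulators of male germ cell genes. Each runs 5′ to 3′ over the 250 bases before the annotated start, and capitals mark matches, on either strand, to the shorter cyclic AMP response element (CRE) core TGACG, the MYB motif TAACNG or the RFX motif GTTGCC. The first belongs to the soluble cyclase Adcy10 (chr1:165484933-165485182, plus strand), the next to the anchor Akap14 (chrX:37168843-37169092, minus strand), then the phosphodiesterase Pde8a (chr7:81213015-81213264, plus strand) and the accessory subunit Pde6d (chr1:86582786-86583035, minus strand).
Adcy10: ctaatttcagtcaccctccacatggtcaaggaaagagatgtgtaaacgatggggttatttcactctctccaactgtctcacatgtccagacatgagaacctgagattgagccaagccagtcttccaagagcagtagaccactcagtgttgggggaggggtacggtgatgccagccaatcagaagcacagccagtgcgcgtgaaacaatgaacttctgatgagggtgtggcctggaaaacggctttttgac
Akap14: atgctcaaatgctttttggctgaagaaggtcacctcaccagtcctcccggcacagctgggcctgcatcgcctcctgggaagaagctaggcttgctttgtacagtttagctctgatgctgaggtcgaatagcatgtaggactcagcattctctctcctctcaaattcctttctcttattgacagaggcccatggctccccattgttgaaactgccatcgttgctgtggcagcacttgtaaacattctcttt
Pde8a: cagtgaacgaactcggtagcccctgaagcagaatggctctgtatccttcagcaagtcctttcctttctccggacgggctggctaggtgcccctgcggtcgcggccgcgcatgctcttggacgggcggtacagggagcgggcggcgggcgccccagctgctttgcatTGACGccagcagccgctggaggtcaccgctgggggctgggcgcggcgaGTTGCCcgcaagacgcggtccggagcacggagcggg
Pde6d: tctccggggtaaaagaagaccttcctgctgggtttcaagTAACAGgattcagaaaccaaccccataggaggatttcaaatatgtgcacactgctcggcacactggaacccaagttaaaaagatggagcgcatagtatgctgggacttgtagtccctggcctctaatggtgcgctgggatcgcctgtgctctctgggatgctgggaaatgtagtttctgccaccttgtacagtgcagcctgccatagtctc
The Adcy10 and Akap14 windows held none of the 3 motifs. In Pde8a the CRE core lay 84 to 80 bases before the start and the RFX motif 36 to 31 bases before it, and in Pde6d the MYB motif lay 211 to 206 bases before it. The full palindromic CRE, TGACGTCA, which also counts as a match to the shorter core, was found in 1 of 85 promoters of the 44 genes with a promoter in the table. It lies 49 to 42 bases before a start of Prkar1a, the PKA subunit RI alpha, and is shown with its flanks (chr11:109650889-109650918, plus strand).
Prkar1a: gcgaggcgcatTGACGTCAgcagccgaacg
Prkar1a was called in none of the comparisons. The full CRE was in 1.18% of the members' promoters, beside 1.55% of all 32851 promoters of that length. The shorter core was in 15.3% beside 17.8%, the MYB motif in 17.6% beside 19.8%, and the RFX motif in 14.1% beside 10.4%. Among the 18 promoters of the genes that rose at 24 versus 8 days, 0 held the full CRE, 3 held the shorter core (16.7%), 3 held the MYB motif (16.7%) and 1, that of Pde8a, held the RFX motif (5.56%). These matches are letters in a window and show no binding.

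Among the cyclases, the soluble enzyme rose and 8 of 9 membrane-bound enzymes fell at 24 versus 8 days. Of all genes, 19.2% rose and 35.2% fell in that comparison. Adcy10 encodes soluble adenylyl cyclase, which answers to bicarbonate and calcium and not to G proteins, and which mouse sperm need for motility. Its values were -1.02, -0.74 and -0.61 at 8 days, 0.00, 0.44 and -0.25 at 16 days and 3.02, 2.57 and 2.56 at 24 days in replicates 1, 2 and 3. The ages did not overlap, and the 24 day arrays stood apart from all others. Adcy10 rose by 0.85 ± 0.19 at 16 versus 8 days (adjusted p 0.00942) and by 2.65 ± 0.19 at 24 versus 16 days (adjusted p 1.11e-05), and over the whole span it was 11.4-fold higher (3.51 ± 0.19, adjusted p 3.35e-07), the largest change of the 54 genes. The change in the later interval exceeded that in the earlier one by 1.80 ± 0.33 (adjusted p 0.0110, or 1.73 with an adjusted p of 0.0611 without replicate 1 of 16 days). Its earlier rise was no longer called when replicate 1 of 8 days and replicate 2 of 16 days were both left out.

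The 9 membrane-bound cyclases are the ones that G-protein-coupled receptors switch on or off. None rose in any comparison. In each interval 6 of 9 fell, with medians of -0.39 and -0.32. Over the whole span 8 of 9 fell, with a median of -0.66 and a range of -1.13 to -0.32. In the first interval, the next and the whole span, 14.3%, 20.1% and 35.2% of all genes fell. The shares of all genes that rose were 10.4%, 13.2% and 19.2%, and their median changes were -0.02, -0.16 and -0.18. Adcy7, which responds to G protein beta-gamma subunits, had 0.46, 0.93 and 0.59 at 8 days, 0.15, -0.17 and 0.00 at 16 days and -0.65, -0.45 and -0.32 at 24 days. Its ages did not overlap, and it fell by 1.13 ± 0.14 at 24 versus 8 days (adjusted p 7.78e-05).

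Adcy3, the cyclase of olfactory neurons and of many cilia, had 0.49, 0.60 and 0.51 at 8 days, 0.00, -0.05 and 0.02 at 16 days and -0.44, -0.63 and -0.41 at 24 days. The steps between its ages were close in size, -0.54 ± 0.09 and -0.49 ± 0.09 (adjusted p 0.00144 and 0.00273), with a whole change of -1.03 ± 0.09 (adjusted p 5.83e-06). Adcy6, a form that calcium inhibits, had 0.40, 0.32 and 0.45 at 8 days, 0.00, 0.03 and -0.06 at 16 days and -0.55, -0.34 and -0.29 at 24 days, and fell by 0.78 ± 0.09 over the whole span. Adcy9, a form that responds little to forskolin, had 0.31, 0.21 and 0.26 at 8 days, 0.01, -0.33 and 0.00 at 16 days and -0.53, -0.47 and -0.38 at 24 days, and fell by 0.72 ± 0.11. The 8 and 24 day arrays of both genes were separate, with the 16 day arrays between them.

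The other membrane-bound cyclases changed less. Adcy5, the close relative of Adcy6, fell by 0.66 ± 0.08 over the whole span and Adcy2 by 0.61 ± 0.14. The fall of Adcy2 was called in the first interval (-0.53 ± 0.14) and not in the next (-0.07 ± 0.14), but the difference between the intervals, 0.46 ± 0.24, was not called (adjusted p 0.424). Adcy1, a calcium-calmodulin-stimulated form of neurons, changed by 0.00 ± 0.08 and then fell by 0.32 ± 0.08. The difference between its intervals, -0.32 ± 0.13, was not called either (adjusted p 0.257). Adcy8, also stimulated by calcium-calmodulin, fell by 0.35 ± 0.11 over the whole span (adjusted p 0.0266), and that call was lost without replicate 1 of 8 days (-0.24), replicate 2 of 24 days (-0.28) or replicate 3 of 24 days (-0.37). Adcy4, a form stimulated by beta-gamma subunits, was called in no comparison and changed by -0.37 ± 0.16 over the whole span (adjusted p 0.0824). That change passed the threshold without replicate 2 or 3 of 16 days (-0.37 each).

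Several interval falls of these genes lay close to the threshold, and their calls were lost on leaving out any of several arrays. In the first interval the fall of Adcy2 was lost without replicate 2 of 8 days (-0.39), replicate 1 of 16 days (-0.50) or replicate 2 of 16 days (-0.52). That of Adcy9 (-0.37) was lost without replicate 1, 2 or 3 of 8 days (-0.34, -0.39 and -0.36) or replicate 2 of 16 days (-0.25). In the later interval the falls of Adcy5 (-0.26), Adcy7 (-0.47) and Adcy9 (-0.35) were lost without replicate 1 of 16 days (-0.24, -0.39 and -0.29), replicate 3 of 16 days (-0.27, -0.46 and -0.30), replicate 1 of 24 days (-0.25, -0.38 and -0.32) or replicate 2 of 24 days (-0.24, -0.48 and -0.35). They were also lost with each array centred on its median. The fall of Adcy6 in that interval (-0.38) was lost without replicate 1 of 24 days (-0.30).

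**Figure D2:**
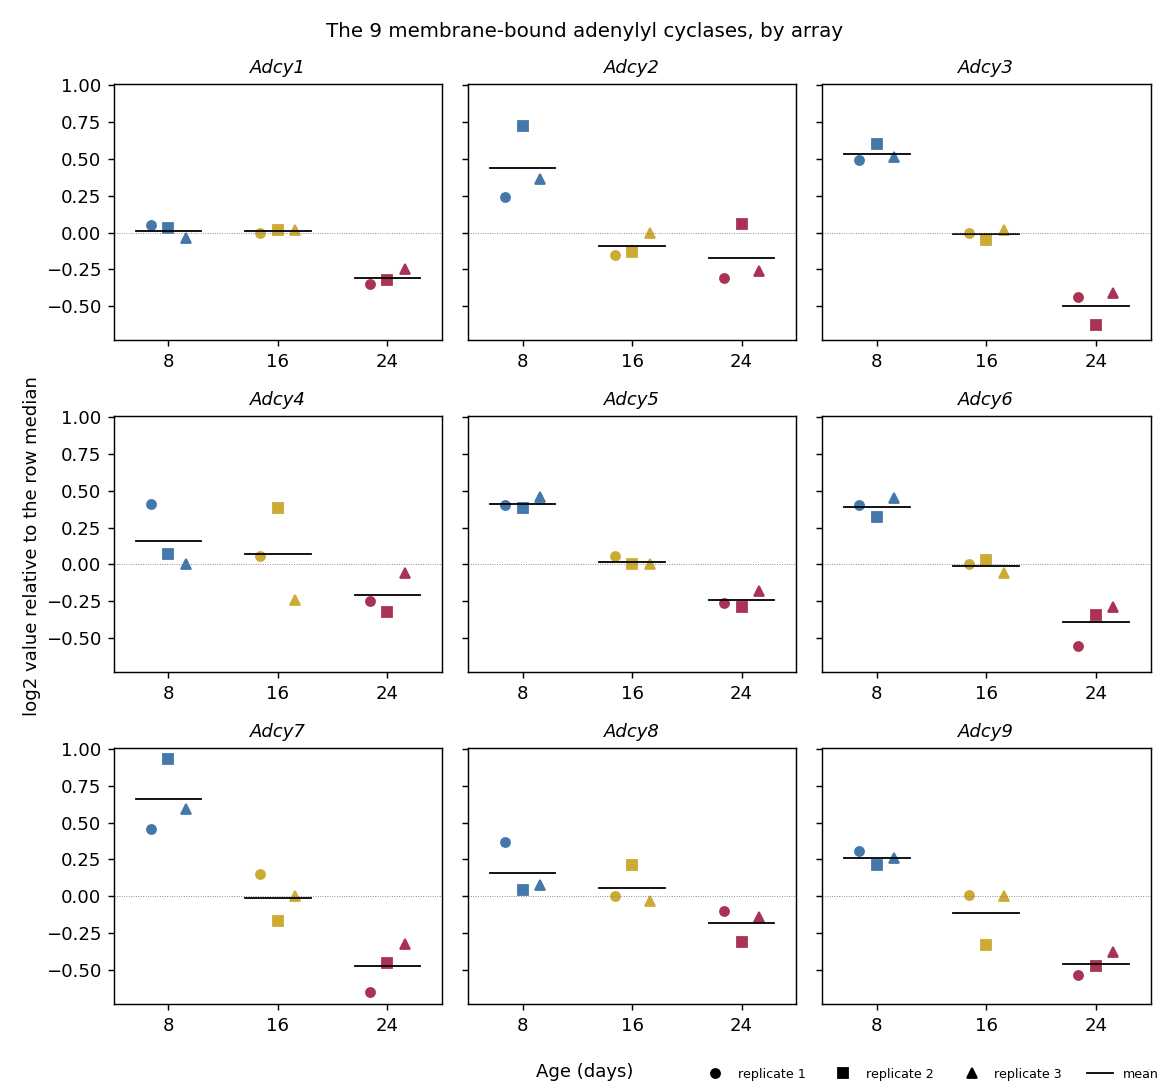
Log2 values relative to the row median (vertical axis) of the 9 membrane-bound cyclases at 8, 16 and 24 days, 1 point per array with the replicate given by its shape, and a line at the mean of each age. The means step down with age in most panels, by up to 1.13 from 8 to 24 days in Adcy7, and the arrays of Adcy4 overlap at 8 and 16 days.

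The changes of the phosphodiesterases over the whole span ran from -1.61 to 2.82, and 12 of 21 catalytic genes were called in some comparison. At 24 versus 8 days 57.1% of them were called, beside 54.4% of all genes. Over the whole span, 3 of 8 that are specific for cyclic AMP rose and 2 fell. Of 8 that hydrolyse both cyclic AMP and cyclic GMP, 4 rose and 1 fell. Of 5 that prefer cyclic GMP, 0 rose and 2 fell. Beside these counts, 19.2% of all genes rose and 35.2% fell, and the classes were not compared by a test. The family median was -0.12, close to that of all genes.

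The largest rise was that of Pde1c, 1 of the calcium-calmodulin-stimulated forms. Its values were -1.55, -1.58 and -1.97 at 8 days, 0.00, 0.62 and -0.08 at 16 days and 1.05, 1.16 and 1.16 at 24 days. The ages did not overlap, and replicate 2 was the highest of the 16 day arrays. Pde1c rose by 1.88 ± 0.18 in the first interval (adjusted p 6.38e-05) and 0.94 ± 0.18 in the next (adjusted p 0.00436), 7.08-fold in all (2.82 ± 0.18).

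Its relative Pde1a rose later. Pde1a had -0.12, 0.20 and 0.00 at 8 days, -0.11, -0.13 and -0.34 at 16 days and 1.96, 1.69 and 1.62 at 24 days, so that the 8 and 16 day arrays overlapped and the 24 day arrays were far above both. Its change was -0.22 ± 0.12 in the first interval (adjusted p 0.245), and it rose by 1.95 ± 0.12 in the next (adjusted p 4.16e-06). The difference between the intervals was 2.17 ± 0.21 (adjusted p 2.58e-04), and it stayed called in every alternative run. Pde1b, the remaining form of this group, was called in no comparison (-0.14 ± 0.10 over the whole span).

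Pde10a, a phosphodiesterase best known from the striatum of the brain, had -0.79, -1.22 and -1.17 at 8 days, 0.00, 0.46 and -0.25 at 16 days and 1.34, 1.10 and 1.51 at 24 days. It rose in both intervals by similar steps, 1.13 ± 0.19 and 1.25 ± 0.19 (adjusted p 0.00194 and 0.00121), and was 5.18-fold higher at 24 than at 8 days. Pde8a, a cyclic AMP-specific form of high affinity, had -1.45, -1.04 and -1.10 at 8 days, -0.03, 0.30 and 0.00 at 16 days and 1.15, 0.94 and 1.07 at 24 days. It rose by 1.29 ± 0.13 and 0.96 ± 0.13 (adjusted p 9.65e-05 and 7.45e-04) and was 4.76-fold higher over the whole span. The ages of both genes were separate on every array.

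Pde3b, a form inhibited by cyclic GMP that is best known from insulin signalling, had -1.57, -0.96 and -0.91 at 8 days, -0.11, 0.21 and 0.00 at 16 days and 0.50, 0.78 and 0.50 at 24 days. It rose by 1.18 ± 0.17 in the first interval (adjusted p 9.88e-04) and was 3.33-fold higher over the whole span (1.74 ± 0.17). Its later step of 0.56 ± 0.17 was called (adjusted p 0.0334), but not without replicate 1 of 16 days (0.49), replicate 3 of 16 days (0.54) or replicate 1, 2 or 3 of 24 days (0.61, 0.47 and 0.61). Pde3a, its relative and the form that breaks down cyclic AMP in oocytes, which they need to resume meiosis, went the other way, with a fall of 0.75 ± 0.10 over the whole span.

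Pde7b, a cyclic AMP-specific form, had -0.04, 0.13 and 0.00 at 8 days, -0.15, -0.24 and -0.25 at 16 days and 1.77, 0.42 and 0.70 at 24 days. All 24 day arrays were above the others, and replicate 1 of that age was far above replicates 2 and 3. It rose by 1.18 ± 0.27 in the later interval (adjusted p 0.0101), or by 0.77 without that replicate (adjusted p 0.00223). Over the whole span it rose by 0.94 ± 0.27 (adjusted p 0.0152), or by 0.53 without that replicate, and the call was lost when replicate 1 of 8 days and replicate 2 of 16 days were both left out (0.90). The difference between its intervals was called only without replicate 1 of 24 days (1.01, against 1.42 ± 0.48 with all arrays). Pde4a, of the rolipram-sensitive group, had 0.75, 0.26 and 0.17 at 24 days against -0.13, -0.07 and -0.10 at 16 days, and rose by 0.49 ± 0.14 (adjusted p 0.0211). Its call was lost without replicate 1 or 3 of 16 days (0.48 and 0.50), and the change was 0.31 without replicate 1 of 24 days. Over the whole span its change was 0.36 ± 0.14 (adjusted p 0.0464), and that call was lost without any 1 of the 8 and 16 day arrays (0.35 to 0.39) or replicate 1 of 24 days (0.18). The Pde4a cells of replicates 2 and 3 of 8 days were blank, and the call was also lost with blank cells left missing.

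Of the small subunits of the retinal enzyme, Pde6d alone was called. It encodes a carrier of lipid-modified proteins that serves cilia. It had -0.67, -0.61 and -0.64 at 8 days, 0.00, 0.00 and 0.01 at 16 days and 0.28, 0.23 and 0.28 at 24 days. The 2 values of 0.00 were blank cells in the file. The small spread at 16 days, and the standard errors that follow, rest partly on taking them as 0. Pde6d rose by 0.64 ± 0.07 in the first interval (adjusted p 1.62e-04) and by 0.90 ± 0.07 over the whole span (adjusted p 4.28e-06). Its later step of 0.26 ± 0.07 was lost without replicate 1 or 3 of 16 days (0.26 each) or replicate 1 or 3 of 24 days (0.25 each). That step was also lost with blank cells left missing. The inhibitory subunits of rods and cones, Pde6g and Pde6h, changed by -0.08 ± 0.08 and -0.07 ± 0.14 over the whole span and were not called.

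**Figure D3:**
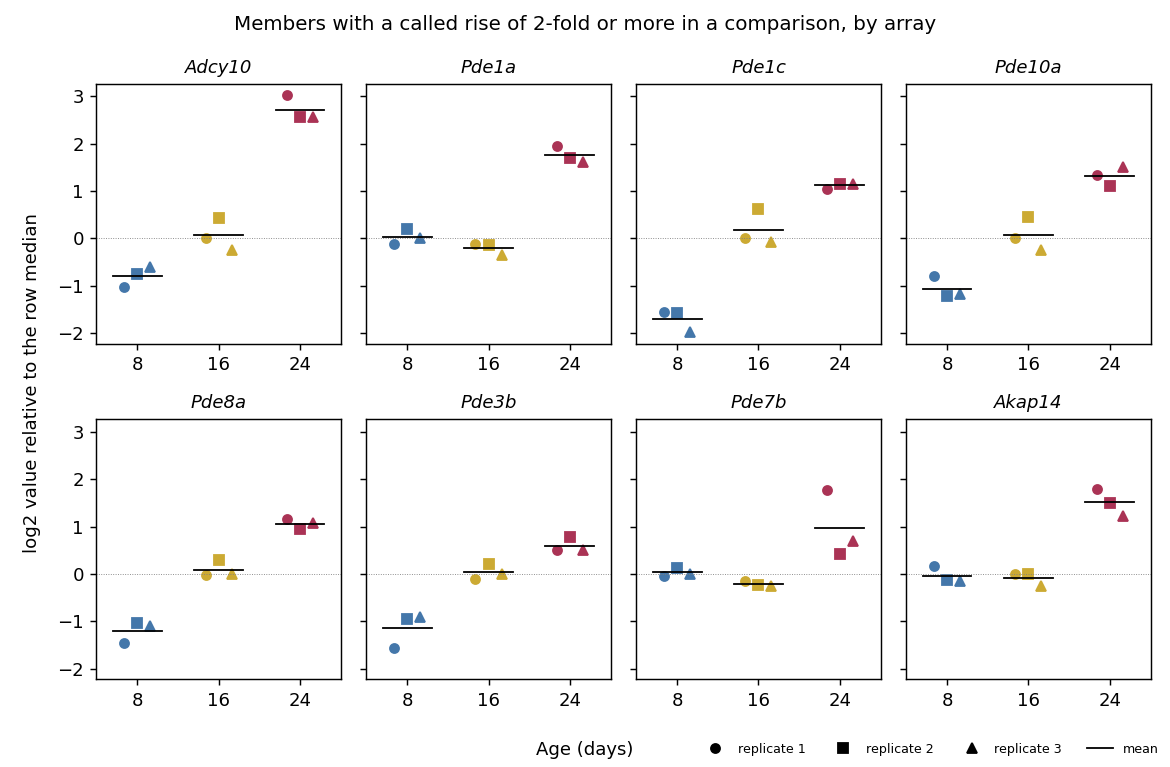
Log2 values relative to the row median (vertical axis) of the 8 genes with a called rise of 2-fold or more in some comparison, at 8, 16 and 24 days, 1 point per array with the replicate given by its shape, and a line at the mean of each age. Pde1c, Pde10a, Pde8a and Pde3b step up at both later ages, while Pde1a, Pde7b and Akap14 are near 0 at 8 and 16 days and high at 24 days.

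The phosphodiesterases that fell include 2 of the 5 that prefer cyclic GMP. Pde5a, the target of sildenafil, had 0.82, 1.70 and 0.63 at 8 days, 0.00, -0.19 and 0.08 at 16 days and -0.70, -0.38 and -0.59 at 24 days. All 8 day arrays were above all later ones, and replicate 2 of 8 days was the highest. It fell in the first interval (-1.09 ± 0.24, adjusted p 0.00772) and over the whole span (-1.61 ± 0.24, adjusted p 2.37e-04). The first of these calls was lost with arrays weighted by their quality (-0.75, adjusted p 0.0596). In the later interval its change of -0.52 ± 0.24 missed the threshold (adjusted p 0.114) and passed it when replicate 2 of 8 days was left out (-0.52, adjusted p 0.0110). Pde9a, which has a high affinity for cyclic GMP, had -0.80, -0.72 and -0.58 at 24 days against 0.24, 0.74 and 0.35 at 8 days and fell by 1.15 ± 0.14. Its fall in the first interval (-0.53 ± 0.14) was lost without replicate 2 of 8 days (-0.38) or replicate 2 of 16 days (-0.43).

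Among the cyclic AMP-specific forms, Pde8b fell where Pde8a rose. Pde8b had -0.73, -0.84 and -0.47 at 24 days against 0.27, -0.18 and 0.24 at 16 days, a fall of 0.79 ± 0.15 (adjusted p 0.00340) after a change of -0.05 ± 0.15 in the first interval. The difference between its intervals missed the threshold (-0.74 ± 0.25, adjusted p 0.157) and passed it once replicate 2 of 16 days was left out (-1.04, adjusted p 0.0360). Pde4c had -0.30, -0.39 and -0.36 at 24 days against 0.12, 0.00 and 0.00 at 16 days and fell by 0.39 ± 0.08 (adjusted p 0.00498). For Pde3a the interval falls of 0.38 ± 0.10 and 0.37 ± 0.10 were lost without most single arrays. In the first interval this held without replicate 1 or 2 of 8 days (-0.30 and -0.34) or any 16 day array (-0.37 to -0.39), and in the later one without replicate 1 or 3 of 16 days (-0.38 each) or replicate 1 or 2 of 24 days (-0.35 each). The Pde3a cells of replicates 1 and 3 of 16 days were blank, and both falls were also lost with blank cells left missing.

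The other 9 catalytic phosphodiesterases were called in no comparison. Pde4d, the main regulator of cyclic AMP in many tissues, was measured by 3 rows, which changed by 0.11, 0.04 and 0.20 over the whole span, and their mean changed by 0.12 ± 0.11 (adjusted p 0.371). Pde11a, a dual-specificity form, had -0.08, -0.01 and -0.07 at 24 days against 0.38, 0.00 and 0.05 at 8 days (-0.19 ± 0.12, adjusted p 0.205). The others were Pde2a, which cyclic GMP stimulates, Pde4b of the rolipram-sensitive group, Pde7a, the relative of Pde7b, and the retinal catalytic subunits Pde6a, Pde6b and Pde6c. Their whole changes lay between -0.30 for Pde7a and 0.05 for Pde4b. The change of Pde7a passed the threshold without replicate 1 of 8 days (-0.40), and so did that of Pde6b in the later interval (-0.28). Pde12 and Pde4dip were also called in no comparison (-0.19 ± 0.10 and -0.16 ± 0.08), although the change of Pde12 passed the threshold without replicate 1 of 8 days (-0.28).

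No PKA subunit rose. Of the 5 genes, 3 fell at 16 versus 8 days and at 24 versus 8 days, and 1 fell at 24 versus 16 days. In these comparisons 14.3%, 35.2% and 20.1% of all genes fell, and 10.4%, 19.2% and 13.2% rose. With 5 genes, a count of 0 rises lies near those shares. Prkar2b, the regulatory subunit RII beta, had 1.05, 1.29 and 1.36 at 8 days, 0.00, -0.43 and 0.41 at 16 days and -0.32, -0.11 and -0.41 at 24 days. All 8 day arrays were above all later ones, while the 16 and 24 day arrays overlapped. It fell by 1.24 ± 0.19 in the first interval (adjusted p 0.00121), and over the whole span it was 2.85-fold lower (-1.51 ± 0.19, adjusted p 8.55e-05). In the later interval it changed by -0.27 ± 0.19 (adjusted p 0.276), or fell by 0.48 without replicate 2 of 16 days (adjusted p 0.0363). The difference between its intervals was 0.97 ± 0.33 (adjusted p 0.156), or 1.39 without replicate 3 of 16 days (adjusted p 0.0282).

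Prkacb, the catalytic subunit C beta, had 0.31, 0.38 and 0.40 at 8 days, 0.00, -0.62 and 0.07 at 16 days and -0.84, -0.76 and -0.70 at 24 days. It fell by 1.13 ± 0.16 over the whole span (adjusted p 1.90e-04), with no overlap of any ages. Its steps of -0.55 ± 0.16 and -0.58 ± 0.16 were called but not firm. The first was lost without replicate 1, 2 or 3 of 8 days (-0.58, -0.54 and -0.53) and was -0.33 without replicate 2 of 16 days, and the later one was lost without replicate 1 or 3 of 16 days (-0.49 and -0.45) or replicate 1 or 2 of 24 days (-0.54 and -0.58).

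Of the regulatory subunits of the RI type, 1 fell. Prkar1b, RI beta, had 0.37, 0.53 and 0.17 at 8 days, -0.02, -0.10 and 0.00 at 16 days and 0.02, -0.29 and -0.21 at 24 days and fell by 0.52 ± 0.11 over the whole span (adjusted p 0.00314). Its fall in the first interval, 0.40 ± 0.11, was lost without replicate 1 or 2 of 8 days (-0.39 and -0.31) or any 16 day array (-0.37 to -0.42). Prkar1a, RI alpha, had -0.17, -0.01 and 0.04 at 8 days, 0.00, -0.23 and 0.00 at 16 days and 0.10, 0.01 and 0.00 at 24 days. Its ages overlapped throughout, and its whole change was 0.08 ± 0.10 (adjusted p 0.479).

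Prkar2a, RII alpha, the regulatory subunit most associated with the sperm tail, had 0.00, 0.38 and 0.21 at 8 days, -0.12, -0.97 and 0.04 at 16 days and 0.23, -0.05 and -0.46 at 24 days. It was spread widely within the later ages, with replicate 2 of 16 days the lowest, and was called in no comparison (-0.29 ± 0.26 over the whole span). Prkaca, the catalytic subunit C alpha, shares its row with Samd1 and is not among the 54 genes. That shared row read 0.00, 0.14 and 0.12 at 8 days, -0.03, -0.38 and -0.19 at 16 days and 0.06, 0.00 and 0.11 at 24 days, with no test, and its signal cannot be assigned to either gene.

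**Figure D4:**
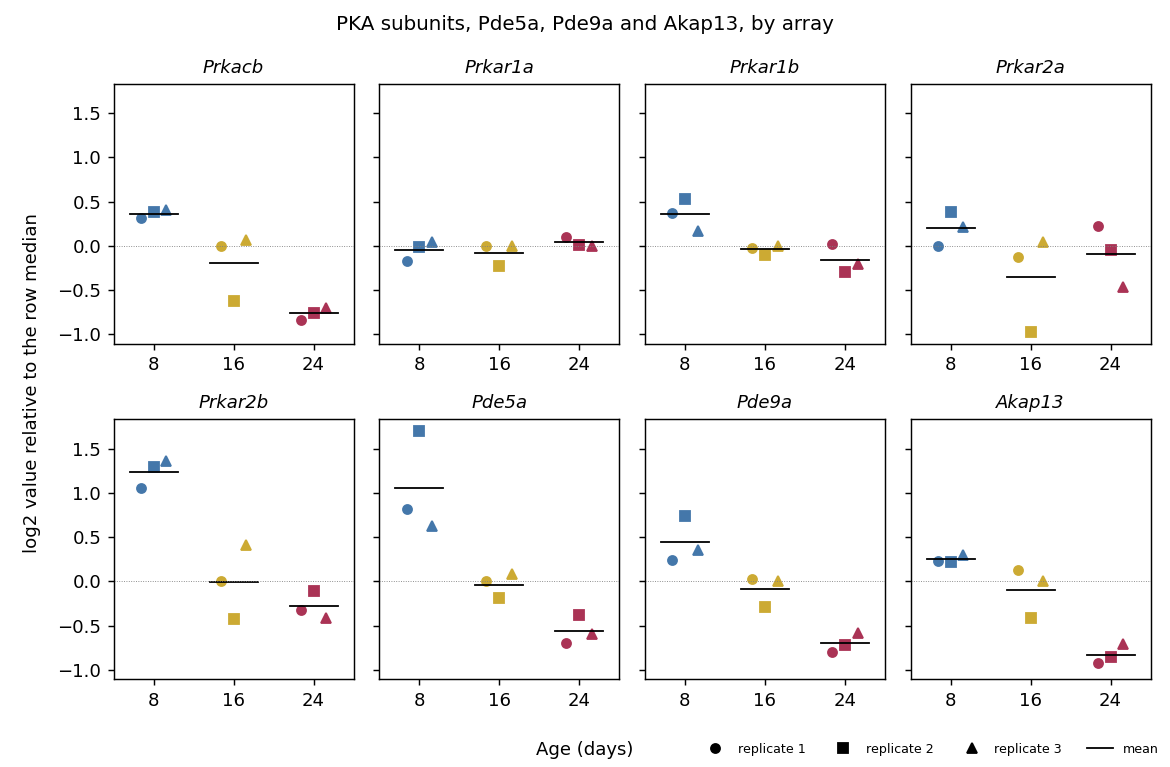
Log2 values relative to the row median (vertical axis) of the 5 PKA subunits and of Pde5a, Pde9a and Akap13 at 8, 16 and 24 days, 1 point per array with the replicate given by its shape, and a line at the mean of each age. Prkar2b and Pde5a stand highest at 8 days, Prkacb, Pde9a and Akap13 step down to 24 days, and Prkar1a stays near 0.

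Of the 13 anchors, 0 rose and 1 fell at 16 versus 8 days, where 24.7% of all genes were called. At 24 versus 16 days 3 rose and 5 fell, where 33.3% of all genes were called, and the intervals were not compared for the family as a whole. Akap14, an anchor of ciliary axonemes encoded on the X chromosome, had 0.16, -0.13 and -0.15 at 8 days, 0.00, 0.00 and -0.26 at 16 days and 1.80, 1.5 and 1.22 at 24 days. The first ages overlapped, and all 24 day arrays were far above them. It changed by -0.05 ± 0.15 and then rose by 1.59 ± 0.15 (adjusted p 7.01e-05), or 3.02-fold, and the difference between the intervals was 1.64 ± 0.26 (adjusted p 0.00481). The sheath anchors Akap3 and Akap4, which are outside the set, rose by 3.55 ± 0.25 and 4.39 ± 0.22 in the same interval. Akap2 shares its row with Pakap and is not among the 13 anchors. That shared row read 0.56, 0.87 and 0.57 at 8 days, 0.00, -0.19 and 0.00 at 16 days and -0.01, -0.47 and -0.46 at 24 days. It was not tested.

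Akap1, which anchors PKA at the outer mitochondrial membrane, was the only gene of the 54 called in opposite directions in the 2 intervals. It had 0.22, 0.23 and 0.28 at 8 days, -0.35, -0.72 and -0.36 at 16 days and 0.74, 0.00 and 0.00 at 24 days, where the 2 values of 0.00 were blank cells in the file. It fell by 0.72 ± 0.19 (adjusted p 0.0199) and then rose by 0.73 ± 0.19 (adjusted p 0.0165). The fall was lost without replicate 2 or 3 of 8 days (-0.73 and -0.70) or replicate 2 of 16 days (-0.60), and the rise was 0.48 without replicate 1 of 24 days. The Leydig cell markers also had a median change of -2.02 and then 0.70 in these intervals. In the later one 1 of 4 was called, and Star changed by -0.39 ± 0.27. Over the whole span their median was -1.68, where Akap1 changed by 0.01 ± 0.19. Replicate 2 of 16 days had the highest mean of these markers at that age, -0.23, and the lowest value of Akap1. Their part in the result was not tested. Both calls were lost when replicate 1 of 8 days and replicate 2 of 16 days were left out together (-0.61 and 0.60). With blank cells left missing, 24 days rests on replicate 1 alone. The later rise was then 1.22, and the change over the whole span was 0.50 in place of 0.01.

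Akap13, which also activates the GTPase RhoA, had 0.23, 0.22 and 0.30 at 8 days, 0.13, -0.42 and 0.00 at 16 days and -0.92, -0.86 and -0.71 at 24 days. Its ages did not overlap, and it fell by 0.73 ± 0.13 in the later interval (adjusted p 0.00335) and by 1.08 ± 0.13 over the whole span (adjusted p 7.90e-05). In the first interval its change was -0.35 ± 0.13 (adjusted p 0.0921), and the fall was called without replicate 1 of 16 days (-0.46, adjusted p 0.0452). Akap5, a scaffold of neuronal synapses, had -0.33, -0.34 and -0.21 at 24 days against 0.32, 0.18 and 0.22 at 8 days and fell by 0.53 ± 0.08. Akap11, which also binds glycogen synthase kinase, was measured by 3 rows that fell alike, by 0.44, 0.48 and 0.56. Its means of those rows were -0.63, -0.19 and -0.44 at 24 days against 0.01, 0.15 and 0.05 at 8 days, a fall of 0.49 ± 0.11 (adjusted p 0.00415).

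The other anchors changed by less than 0.50 over the whole span. Akap8, a nuclear anchor, fell by 0.44 ± 0.10, Akap9, of the centrosome and Golgi, by 0.47 ± 0.12, and Akap7, a membrane anchor, by 0.47 ± 0.13, the last of which was lost without replicate 2 of 8 days (-0.37) or replicate 1 of 24 days (-0.41). Akap12, the scaffold gravin, rose by 0.46 ± 0.12 and Akap10, which binds both RI and RII subunits, by 0.48 ± 0.13. Akap6, of the nuclear envelope, Akap8l, the relative of Akap8, and Akap17b, another X-linked anchor, were not called in any comparison, with whole changes of -0.08 ± 0.12, -0.02 ± 0.10 and -0.33 ± 0.13. Akap17b came close (adjusted p 0.0642) and was called without replicate 1 of 8 days, replicate 2 or 3 of 16 days or replicate 2 of 24 days (-0.33 to -0.41). In the later interval the changes of Akap10 (0.30) and Akap9 (-0.28) passed the threshold only without replicate 1 of 8 days (0.30) and replicate 2 of 24 days (-0.37). In the same interval the calls of Akap5 (-0.31), Akap7 (-0.42), Akap8 (-0.39) and Akap12 (0.41) were lost without replicate 1 of 16 days (-0.32, -0.38, -0.36 and 0.44) or replicate 1 of 24 days (-0.29, -0.37, -0.33 and 0.30), and that of Akap12 also without replicate 2 of 16 days (0.33). For Akap5 and Akap7 they were lost too without replicate 3 of 16 days (-0.29 and -0.33) or replicate 2 of 24 days (-0.29 and -0.45), and for Akap7 without replicate 3 of 8 days (-0.42) or replicate 3 of 24 days (-0.45).

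The neighbours of these genes in the pathway were counted from lists of other parts of it, and their counts are to be read beside the 19.2% of all genes that rose and the 35.2% that fell at 24 versus 8 days. Of 16 measured receptors that raise cyclic AMP, 0 rose and 7 fell at 24 versus 8 days (median -0.34), led by the receptor of the neuropeptide PACAP, Adcyap1r1 (-1.24 ± 0.11), the follicle-stimulating hormone receptor Fshr, which is also on the list of Sertoli cell markers (-0.98 ± 0.15) and the parathyroid hormone receptor Pth1r (-0.73 ± 0.09). The mean of the receptors was 0.42 in replicate 1 of 8 days, against 0.13 and 0.09 in replicates 2 and 3. Among these falls, Gpr6 and Gpr12 were only just called (adjusted p 0.0467 and 0.0496). Their values in replicate 1 of 8 days were 0.57 and 0.33, against 0.00 to 0.06 in replicates 2 and 3. The calls of these lists were not tried with arrays left out. Of 13 genes of G protein subunits and of their chaperones Ric8a and Ric8b, 1 rose and 8 fell (median -0.42). Both chaperones are among those that fell (-0.42 ± 0.08 and -1.07 ± 0.15). The beta subunits Gnb4 and Gnb5 fell by 1.71 ± 0.18 and 1.63 ± 0.16, while the alpha subunit Gnao1 rose by 1.33 ± 0.15. Gnas, the stimulatory alpha subunit, had no row of its own and is not analysed here.

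The PKA inhibitors did not move together. Pkib and Pkig rose by 1.91 ± 0.14 and 1.03 ± 0.10 over the whole span, and Pkia fell by 1.30 ± 0.21. Pkib had 1.95, 1.78 and 1.44 at 24 days against 0.04, -0.27 and -0.32 at 8 days, and these ages did not overlap. Prkx, an X-linked kinase related to the catalytic subunits, fell by 1.04 ± 0.19.

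Of 10 transcription factors and coactivators of the cyclic AMP response, 3 rose and 6 fell over the whole span (median -0.60). Crem, whose activator form drives genes of spermatids, had -1.57, -1.14 and -1.79 at 8 days, 0.00, 0.53 and -0.03 at 16 days and 1.46, 1.39 and 1.03 at 24 days. It rose by 1.66 ± 0.20 and 1.13 ± 0.20 in the intervals, with no overlap between ages. Creb3l4, a membrane-bound factor of spermatids, rose by 3.12 ± 0.16 and Fhl5, the partner of CREM, by 2.88 ± 0.21, while Creb1 fell by 0.50 ± 0.12 and its coactivator Crtc3 by 1.24 ± 0.18. Fhl5 first fell by 0.75 ± 0.21 at 16 versus 8 days and then rose by 3.62 ± 0.21 at 24 versus 16 days. The probes do not separate the activator and repressor forms of Crem.

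Of 15 measured cyclic nucleotide effectors outside PKA, 3 rose and 6 fell (median -0.23). Slc9c1, the sperm sodium-proton exchanger with a cyclic nucleotide-binding domain, had -2.68, -2.90 and -2.92 at 8 days, 0.00, 0.86 and -0.06 at 16 days and 2.10, 2.08 and 2.05 at 24 days, and rose by 4.91 ± 0.21. Cnbd2, a cyclic AMP-binding protein of sperm, rose by 1.97 ± 0.22, and Bves, a cyclic AMP-binding membrane protein, fell by 1.10 ± 0.21. All 4 proteins with an RII-like docking domain rose (median 4.05), among them Ropn1l by 4.27 ± 0.16, Cabyr by 4.14 ± 0.14 and Ropn1 by 3.97 ± 0.18. Of 8 anchors without an Akap symbol 2 rose and 4 fell (median -0.20), with Wasf1 falling by 1.13 ± 0.10, Cbfa2t3 by 0.84 ± 0.09 and Ezr, which encodes ezrin, by 0.75 ± 0.11. Of 11 genes of cyclic GMP synthesis and its kinases, 0 rose and 5 fell (median -0.36), including the guanylyl cyclase subunit Gucy1a1 (-1.25 ± 0.16) and the natriuretic peptide receptors Npr2 (-1.24 ± 0.12) and Npr1 (-1.04 ± 0.15).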

How the data were processed

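RNA of whole testis at 8, 16 and 24 days was measured on 9 Affymetrix arrays, 3 per age. The deposited values are log2 signals centred by the authors on the median of every row, as the values show. Background correction, normalization, summarization and the genome build are not given in the sources used here. The labels' protocols name QIAzol and miRNeasy extraction and whole-transcript sense-target labelling. The file holds no intensities, so that no level, no detection limit and no comparison of levels between genes is possible, and precision is limited by having 3 arrays an age. Blank cells were taken as 0, since every one of the 28815 rows then has a median of 0. The file held 38964 blank cells, and no row was without one. Of the 58 rows of the 54 genes, 46 had 1 blank. Akap1, Akap9, Pde3a, Pde4a, Pde6b, Pde6d and Prkar1a had 2. Akap6, Pde2a and Pde4b had 3, and Pde4d had up to 3 in a row. Rows with exactly 1 gene symbol (21780) were averaged per gene, which gave 19935 genes.

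The test was limma 3.58.1 under R 4.3.3, with 1 coefficient for each age and 9 arrays in the model. It left 6 residual degrees of freedom, to which the prior added 3.82. Tests were 2-sided, with p adjusted by Benjamini-Hochberg over all genes and a threshold of 0.05. Contrasts were the 3 comparisons of ages and the difference between the intervals. The fit was tested on simulated data. The members and lists were chosen with earlier results of these data known. Every member is named. Values per array are given for up to 5 members per family with the largest called, non-overlapping changes, for all PKA subunits and for Adcy10, Pde4d, Pde8a, Pde11a and Akap1, except that for Pde4d the change of each row is given. Array values of Pde5a, Pde7b, Pde9a, Pde8b, Pde4a, Pde4c and Pde6d, of Crem, Pkib and Slc9c1 and of the rows shared by Prkaca and by Akap2 were added after their values were seen. All 54 gene IDs matched RefSeq (GRCm38.p6), used for names, chromosomes and promoters only. Numbered replicates of different ages did not deviate together in all pairs (r of -0.46 to 0.20), so no block was used. Figures were drawn with matplotlib 3.10.9.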

Additional observations from a re-analysis of the deposited data

Results flagged for a closer look

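Akap1 stands out because its change differed between the intervals by test and turned direction. The change at 24 versus 16 days exceeded the change at 16 versus 8 days by 1.45 ± 0.33 on the log2 scale (limma adjusted p 0.0311). Values were lower in every 16 day array (-0.72 to -0.35) than in every 8 day array (0.22 to 0.28), and higher in every 24 day array (0.00 to 0.74) than in every 16 day array. The call was lost without any 1 of the 8 and 16 day arrays (1.20 to 1.57). Of the 24 day arrays, 2 had blank cells. With blank cells left missing, the change of Akap1 over the whole span was 0.50 and rests on replicate 1 of 24 days alone. The median change of the 4 Leydig cell markers was -2.02 at 16 versus 8 days and 0.70 at 24 versus 16 days. In the later interval 1 of 4 was called, and Star changed by -0.39 ± 0.27. Over the whole span their median was -1.68, where Akap1 changed by 0.01 ± 0.19. The part of these markers was not tested.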

How the results depend on the processing

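Of 85 changes called for the 54 genes, 21 were called in every alternative run for them and 38, which include those 21, in every one other than limma's treat against a 1.5-fold change. None changed direction. Treat left 2 rises and 0 falls at 16 versus 8 days and 3 and 0 at 24 versus 16 days. At 24 versus 8 days it left 8 rises and 7 falls, and it left 1 of 4 higher interval differences. Leaving out each array in turn gave 6 to 13 falls at 16 versus 8 days, 7 to 17 falls and 8 to 13 rises at 24 versus 16 days, 21 to 24 falls and 11 to 12 rises at 24 versus 8 days, and 2 to 5 higher and 0 to 1 lower interval differences. At 24 versus 16 days 9 genes fell with arrays centred on their medians, and 9 with blank cells left missing. With replicate 1 of 8 days and replicate 2 of 16 days both left out, 1 interval difference was lower. No label pairs the replicate numbers. A replicate block on the 6 numbered arrays gave 2 falls at 16 versus 8 days, 6 rises and 0 falls at 24 versus 16 days and 2 higher interval differences. The same 6 arrays with no block, an alternative chosen after seeing the data, gave 4 falls, then 5 rises and 1 fall, and 2 higher interval differences. The cause of these shifts was not tested.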
